A study of Mus musculus with 12 samples.

Results

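Gene deserts are long stretches of genome with no start site of a protein-coding gene. The desert sites described here were DNase I hypersensitive sites (DHSs) whose midpoint lay more than 200 kb from every protein-coding start. There were 9583 of them among 170207 consensus DHSs, or 5.63% (95% Wilson interval 5.52% to 5.74%, counting error only). A consensus DHS was the region left when overlapping peaks of all 12 libraries, on chromosomes 1 to 19 and X, were merged. Distances were taken to 54050 transcript starts of 21646 protein-coding genes in GENCODE release M21 on mm10.

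The study followed chromatin opening as mouse haematopoietic progenitors enter the T cell lineage under Notch signalling. DNase-seq sequences short fragments released by DNase I, an enzyme that cuts where DNA is not covered by nucleosomes, so a peak marks open chromatin. LSK cells (3 libraries), the starting population, were lineage-negative SCA1+ KIT+ marrow cells of C57BL/6J mice. Culture of LSK cells on immobilized Delta1, a Notch ligand, gave 3 sorted populations of T cell precursors, from early to late DN1, DN2a and DN2b (2 libraries each), and the IgG group (3 libraries) was LSK cells cultured on immunoglobulin with no Notch ligand. The cultures that gave DN2a and DN2b cells had IL-7 added and those for DN1 had none, so stage and IL-7 cannot be told apart between DN1 and DN2. Each LSK isolate could give several DN populations, so some libraries may come from the same isolate, and the labels do not say which. Replicates are numbered in deposition order, with no meaning beyond a name. A bulk library also cannot tell fewer open cells from less opening per cell. The promoter of Ly6a, which encodes SCA1, had no peak in any library, LSK included, whereas those of Kit and Cd44 had one in all 12 libraries. The promoters of Il2ra, which encodes the DN2 gate marker CD25, and of Cd3e had a peak in the 4 DN2 libraries and in no other, while that of Bcl11b had one in all 9 LSK and Delta1 libraries and in no IgG library.

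Deserts are not empty of regulation. Enhancers, the short elements that bind transcription factors and raise the transcription of a gene from a distance, can lie far along the chromosome from the gene they act on, and developmental regulators are often flanked by deserts that carry several. An open site far from any start is a candidate for such an element, or for a binding site of CTCF, a factor that holds chromatin loops, but openness alone does not say which gene it serves. Desert names below give the protein-coding genes whose starts flank the stretch.

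The sequence of 1 site per pattern is printed to show what a desert DHS looks like, each being the one with the highest rank of its peaks among desert DHSs of that pattern. Sequences are from the RefSeq assembly GRCm38 (mm10), plus strand, and capitals mark matches on either strand to 9 motifs of transcription factors. RUNX factors were searched as TGTGGT and the Notch-induced pair TCF1/LEF1 as CTTTGA. E proteins bind a short palindrome-like box, searched as CAGCTG. Its other common form, searched in the same class, is CAGGTG. The letters for GATA factors were AGATAA and those for PU.1 were GAGGAAGT. RBPJ, the DNA-binding partner of Notch, was searched as GTGGGAA and the C/EBP family as TTGCNNAA. AP-1 was searched as TGANTCA and CTCF as CCANNAGGG, where N is any base. A match is a description and not a shown binding site.
Open in all 6 Delta1-cultured libraries and no other (intergenic, 303 kb from Pik3r1), chr13:102070877-102071066: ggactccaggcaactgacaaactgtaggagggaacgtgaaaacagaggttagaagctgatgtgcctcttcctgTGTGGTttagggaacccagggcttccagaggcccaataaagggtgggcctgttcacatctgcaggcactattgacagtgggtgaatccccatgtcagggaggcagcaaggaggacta
Open in all 4 DN2 libraries and no other (intergenic, 365 kb from Runx1), chr16:93191177-93191466: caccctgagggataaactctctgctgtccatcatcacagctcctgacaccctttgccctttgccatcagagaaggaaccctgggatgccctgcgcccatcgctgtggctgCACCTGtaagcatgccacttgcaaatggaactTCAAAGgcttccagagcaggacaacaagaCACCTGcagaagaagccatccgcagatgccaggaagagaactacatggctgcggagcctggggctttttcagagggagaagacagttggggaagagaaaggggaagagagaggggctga
Open in LSK only (exon of the lncRNA gene Gm32865, 226 kb from N6amt1), chr16:87128277-87128466: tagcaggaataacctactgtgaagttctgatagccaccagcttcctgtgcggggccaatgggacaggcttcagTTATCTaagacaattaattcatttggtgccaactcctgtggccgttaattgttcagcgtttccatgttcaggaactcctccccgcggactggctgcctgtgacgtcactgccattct
Open in DN1 only (intergenic, 494 kb from Tbl1xr1), chr3:21582217-21582406: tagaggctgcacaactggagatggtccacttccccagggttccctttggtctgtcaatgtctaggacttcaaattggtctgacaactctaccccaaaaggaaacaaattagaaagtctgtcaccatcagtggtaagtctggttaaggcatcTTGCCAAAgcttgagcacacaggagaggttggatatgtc
Open in DN2a only (intergenic, 222 kb from 4930474N05Rik), chr14:36316577-36316726: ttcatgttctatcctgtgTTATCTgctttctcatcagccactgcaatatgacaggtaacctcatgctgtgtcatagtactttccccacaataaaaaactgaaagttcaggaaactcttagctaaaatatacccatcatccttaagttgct
Open in DN2b only (intron of the lncRNA gene Gm31887 within the Tcrg locus, 210 kb from Stard3nl), chr13:19185557-19185706: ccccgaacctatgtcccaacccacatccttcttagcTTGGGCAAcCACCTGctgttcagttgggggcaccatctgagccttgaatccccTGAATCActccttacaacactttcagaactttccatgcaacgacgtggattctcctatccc
Open in IgG only (intergenic, 305 kb from St3gal1), chr15:67481817-67481966: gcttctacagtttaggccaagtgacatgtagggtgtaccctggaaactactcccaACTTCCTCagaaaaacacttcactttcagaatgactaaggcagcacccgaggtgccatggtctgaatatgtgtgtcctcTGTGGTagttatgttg
Open in all 12 libraries (intergenic, 205 kb from Uaca), chr9:60999137-60999366: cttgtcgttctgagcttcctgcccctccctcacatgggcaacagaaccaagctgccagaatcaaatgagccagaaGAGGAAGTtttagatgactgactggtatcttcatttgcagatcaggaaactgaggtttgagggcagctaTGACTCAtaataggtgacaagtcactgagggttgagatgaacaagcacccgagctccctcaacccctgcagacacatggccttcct

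The Delta1 site 303 kb from Pik3r1, a regulatory subunit of phosphoinositide 3-kinase, ranked at the 96.0th and 96.2nd percentile of the DN1 lists by score, the 97.3rd and 97.1st of DN2a, and the 99.0th and 98.8th of DN2b, and had no peak in any LSK or IgG library. The DN2 site 365 kb from Runx1, a transcription factor of T cell and stem cell development, ranked at the 79.3rd and 75.9th percentile in DN2a and the 89.4th and 95.8th in DN2b. The IgG site 305 kb from St3gal1 ranked at the 94.4th, 94.6th and 97.2nd percentile in the 3 IgG libraries. These high ranks were not typical: the median percentile was 60.2 for the desert DHSs open in the 6 Delta1 libraries alone, 41.7 for those of the 4 DN2 libraries and 14.3 for all desert DHSs.

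Desert DHSs were sparse. The 1227 deserts made up 25.6% of the genome outside assembly gaps (654 Mb) and held 14.6 DHSs per Mb, against 84.3 per Mb elsewhere, a ratio of 5.76. No DHS was found in 220 deserts, the median desert held 4, and the 20 fullest held 1384, or 14.4% of the total. The median distance to the nearest start was 309 kb and the longest was 2334 kb. Midpoints of 66.1% lay outside any gene record, 19.8% lay inside protein-coding genes, nearly all of them in introns of long genes such as Wwox (83 DHSs), Sox5 (36) and Slc9a9 (34), and 13.02% lay in lncRNA genes. Antigen receptor loci can count as desert here because their segments are not recorded as protein-coding genes. They held 292 of the DHSs (3.05%): 166 in Igh, 95 in Tcra/Tcrd, 21 in Igk and 10 in Tcrg, with 0 in Tcrb and 0 in Igl.

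The deposited lists held 32952 to 111582 peaks on these chromosomes, and read depth is unknown. Desert peaks numbered 2026, 2075 and 2617 in LSK, 4377 and 2996 in DN1, 2600 and 2806 in DN2a, 2173 and 5381 in DN2b, and 826, 874 and 1218 in IgG. Every IgG list held fewer than any other list, and DN2b replicate 2 and DN1 replicate 1, the 2 longest lists, held the most. As a share of its list, the desert contribution was, as mean ± SD, 3.92% ± 0.239 in LSK (n = 3), 4.43% ± 0.156 in DN1 (n = 2), 4.33% ± 0.752 in DN2a (n = 2), 4.18% ± 0.911 in DN2b (n = 2) and 2.70% ± 0.524 in IgG (n = 3). The groups accounted for a share of the variance between libraries (eta squared) of 0.718, with p = 0.0470 (exact permutation test, all 138600 ways to divide 12 libraries into such groups). Leaving out any one LSK, DN1 or IgG library ended this call (exact permutation p of 0.0577 to 0.162). When each list was reduced to its 32952 highest-scoring peaks, the desert share fell to between 1.85% and 2.65%, eta squared was 0.393 and the exact permutation p was 0.415. The lower share in IgG was thus seen on lists of unequal length only, and list length and group cannot be told apart in it.

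**Figure D1:**
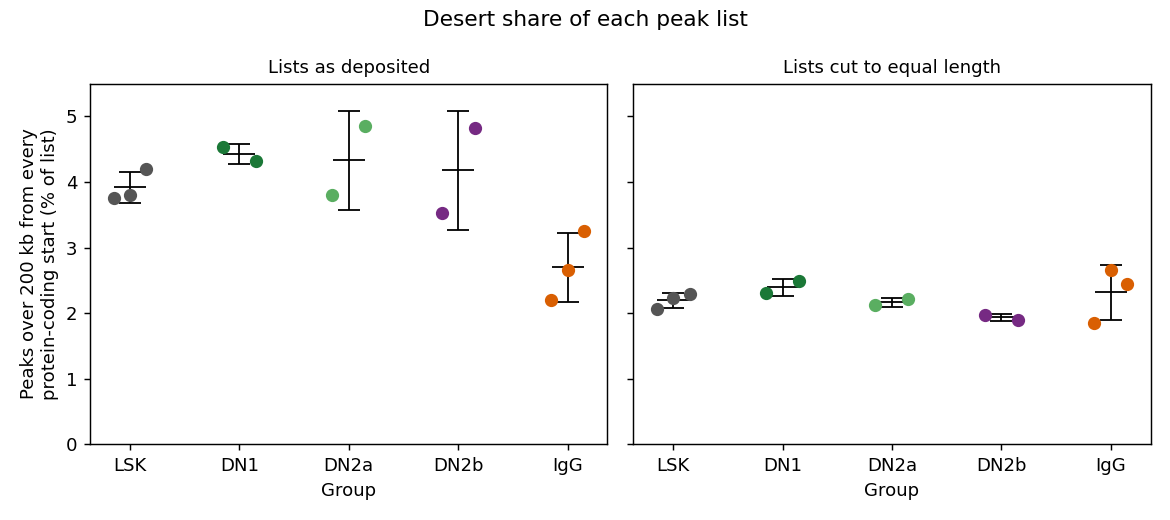
Peaks lying in desert DHSs as a percentage of each list, by group, for the lists as deposited (left) and for the 32952 highest-scoring peaks of each library (right). Points are libraries, black bars the group mean ± SD (n = 2 or 3). As deposited, the IgG libraries lie at 2.20% to 3.25% and all others at 3.53% or more. At equal length, all libraries lie between 1.85% and 2.65%.

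Fewer libraries shared a desert DHS than shared other DHSs. Of the desert DHSs, 41.3% (3954) had a peak in 1 library, against 32.7% of all consensus DHSs and 32.2% of those nearer to a start. Only 101 (1.05%) had a peak in all 12 libraries, against 7.68% of all and 8.07% of the nearer DHSs. The gap was narrower against DHSs from 1 to 200 kb, of which 3.58% were open in all 12, than against promoter DHSs within 1 kb of a start (24.4%). DN2b replicate 2 alone supplied 33.6% of the desert DHSs found once and DN1 replicate 1 supplied 20.1%. Leaving out any one library gave a share found once of 41.1% to 47.4% for desert DHSs and 31.6% to 34.0% for the rest.

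Within each library, which fixes the depth, the share of DHSs found in no other library was higher for desert DHSs than for the rest in 12 of 12 libraries, by 6.01 percentage points on average (range 2.73 to 10.3). The share found in all 12 was lower in 12 of 12 libraries, by 19.5 points on average (5.67% against 25.2%). The DHSs found in all 12 are by definition the same 101 desert and 12967 other DHSs in every library. The 12 differences in this share, and any test on them, thus restate a single pooled contrast and are not separate support for it. The median score percentile of desert peaks was 24.4 ± 3.70 (SD, n = 12) against 50.9 ± 0.320 for the rest, again lower in 12 of 12 libraries. The difference of -26.4 was -13.8 at equal list lengths and -12.5 in the upper 50% of each list. Each of the 3 differences had p = 0.000488 (two-sided exact permutation test, 4096 sign flips, Benjamini-Hochberg adjusted p = 0.000488), the smallest this test can give with 12 libraries. Because desert peaks scored low, the comparison was repeated among DHSs of the same band of score, each list being cut into 4 bands of equal size, an alternative chosen after seeing the data. In the lowest band the share found once was higher for desert DHSs by 3.81 points (11 of 12 libraries, exact permutation p = 0.0415), and in the 3 higher bands the mean differences were -0.851, -0.595 and 0.0762 points, with exact permutation p of 0.429, 0.0566 and 0.999. The deficit of DHSs shared by all 12 libraries was present in every band and was widest in the highest, where 23.5% of desert DHSs and 64.7% of the rest were open in all 12 (12 of 12 libraries, exact permutation p = 0.000488). In each library these shared DHSs were drawn from the same set, so the 12 libraries are not separate support here either. The share of promoters among the rest was not matched in this comparison.

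**Figure D2:**
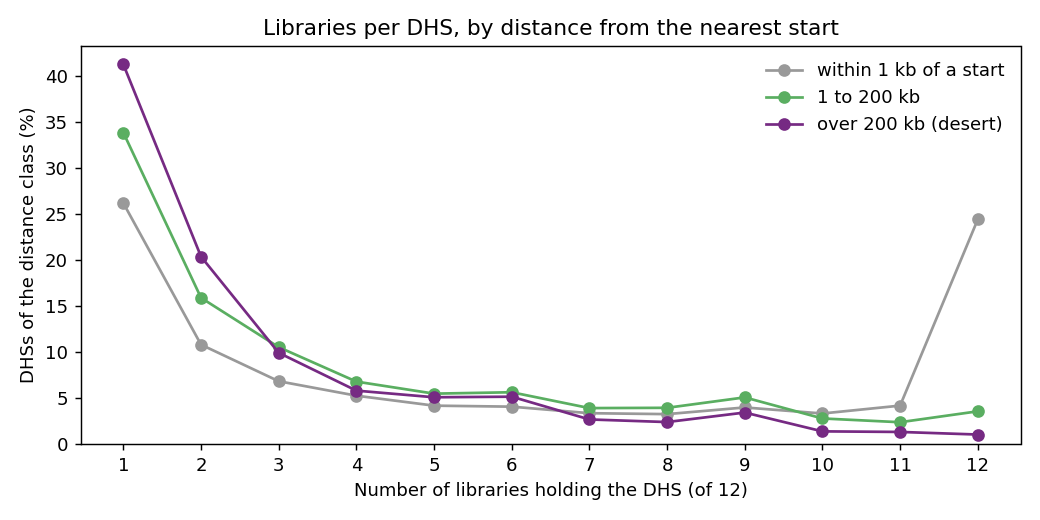
Percentage of DHSs held by 1 to 12 libraries, for DHSs within 1 kb of a protein-coding start, from 1 to 200 kb, and over 200 kb (desert). Desert DHSs run from 41.3% in 1 library down to 1.05% in all 12, whereas promoter DHSs rise again to 24.4% at 12 libraries.

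The 200 kb limit did not mark a step. DHSs from 190 to 200 kb (768) were found once in 40.8% of cases and in all 12 libraries in 1.43%. Those from 200 to 210 kb (689) were found once in 40.5% and in all 12 in 1.16%. Farther out, the share found once was 39.5% from 200 to 300 kb, 42.2% from 300 to 500 kb, 45.1% from 500 to 1000 kb and 38.6% among the 347 DHSs beyond that. Desert DHSs had a median GC content of 44.7%, against 49.3% for all DHSs, and it decreased from 46.0% at 200 to 300 kb to 41.3% beyond 1000 kb. Their median width was 170 bp, as for all DHSs, and 7.92% of them were at least 50% repeat sequence, against 6.58% of all.

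Which desert DHSs were open followed the groups. The Jaccard index, the DHSs open in both libraries of a pair over those open in either, averaged 0.440 ± 0.0654 (SD, 9 pairs) within groups and 0.221 ± 0.113 (57 pairs) between groups. The difference of 0.219 had p = 2.16e-05 in the exact permutation test (138600 divisions, one-sided for replicates being more alike). For the other DHSs the indices were higher, 0.594 within and 0.392 between groups, and the difference was 0.203. At equal list lengths the difference was 0.332 for desert DHSs and 0.216 for the others, each with p = 7.22e-06, the smallest these divisions can give in the exact permutation test. Whether desert and other DHSs differ in this was not tested. At equal lengths the similarity to LSK was lower at each later stage, a description with no test: LSK shared 0.329 ± 0.0189 (SD, 6 pairs) with DN1, 0.252 ± 0.00972 with DN2a and 0.210 ± 0.00571 with DN2b, and DN2a shared 0.590 ± 0.00187 (4 pairs) with DN2b. The lowest indices were between DN2b and IgG (0.0916 ± 0.0206, 6 pairs). LSK and IgG, both without Delta1, shared 0.164 ± 0.0283 (9 pairs).

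By presence in at least 2 replicates, LSK had 1906 open desert DHSs, DN1 2452, DN2a 1485, DN2b 1818 and IgG 799. At equal list lengths these were 665, 639, 564, 517 and 612. The rule asks for 2 of 3 libraries in LSK and IgG and for both in the other groups, so these totals do not rank the groups. Single libraries at equal lengths held 661 to 737 open desert DHSs in LSK, 742 and 803 in DN1, 678 and 711 in DN2a, 628 and 613 in DN2b, and 594 to 834 in IgG. The 4 stages from LSK to DN2b shared 654 (6.82%, against 16.4% of all consensus DHSs), and all 5 groups shared 238 (2.48% against 10.1%). The rule was met in no group by 5520 (57.6%), against 44.8% of all consensus DHSs. Of the 1906 open in LSK, 65.9% were also open in DN1, 43.3% in DN2a and 43.9% in DN2b, while IgG kept 20.99%. For the other DHSs open in LSK these shares were 77.5%, 62.5%, 66.9% and 43.7%. At equal list lengths, of the 665 open in LSK, 49.8% were also open in DN1, 37.3% in DN2a and 31.1% in DN2b, while IgG kept 28.4%. Retention of desert DHSs was thus lower than that of other DHSs in all 4 groups on both sets of lists, a description with no test. DN1 gained 1196 desert DHSs that LSK lacked (12.5% of desert DHSs, against 11.6% of all consensus DHSs). Lacking or absent here means a peak in fewer than 2 replicates, so a single library of that group may hold a peak. DN2a gained a further 254 absent from LSK and DN1 (2.65% against 2.91%), and DN2b 379 absent from all earlier stages (3.95% against 5.13%). The DN1 and DN2a shares thus lay near those of all DHSs, and the DN2b share below. At equal list lengths the gains were 308, 163 and 86, so that DN2a, not DN2b, had the larger of the later gains. The gains over all consensus DHSs were not counted at equal lengths, so this order is not shown to be particular to deserts.

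Stage-specific desert DHSs, open in at least 2 replicates of 1 group with no peak in any library of another, numbered 973, or 10.2% of desert DHSs against 8.79% of all consensus DHSs. LSK-only sites were 265 (2.77%, 2.46% to 3.11% by Wilson interval, against 1.58% of all DHSs) and DN1-only sites 276 (2.88%, 2.56% to 3.23%, against 1.77%). DN2a-only sites were 4 (0.0417% against 0.0646%) and DN2b-only sites 156 (1.63%, 1.39% to 1.90%, against 1.86%). IgG-only sites were 272 (2.84%, 2.52% to 3.19%, against 3.51%). A peak in all 6 Delta1 libraries and no other was found at 208 desert DHSs (2.17%, 1.90% to 2.48%, against 1.9%) and in all 4 DN2 libraries and no other at 77 (0.804%, 0.643% to 1.003%, against 0.758%), a count that rose to 141 without DN1 replicate 1 and to 132 without DN2a replicate 2. A peak in every LSK and IgG library and no Delta1 library was found at 8 (0.0835% against 0.0987%). The LSK-only and DN1-only shares of desert DHSs thus lay above the background of all DHSs, the IgG-only share below it, and the Delta1-only, DN2-only and DN2b-only shares near it on the deposited lists. At equal list lengths the IgG-only share of 13.9% was above that of all DHSs, 11.2%, so its side of the background depended on list length, while the LSK-only share (7.46% against 3.90%) and the DN1-only share (2.88% against 1.06%) stayed above. The Delta1-only share (2.96% against 1.84%) and the DN2-only share (2.88% against 1.98%) were also above the background at equal lengths, while the DN2b-only share was below it. The DN2a-only count was 14 at equal lengths, and its share changed side, to 0.552% against 0.295%.

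Motif content differed by pattern. Over the central 150 bp, the RUNX motif was present in 65.9% of the 208 Delta1-only desert DHSs (Wilson interval 59.2% to 72.0%) against 23.1% of all consensus DHSs. C/EBP, a family of myeloid factors, had its motif in 43.4% (37.6% to 49.3%) of the 272 IgG-only DHSs against 7.91% of all, and AP-1 in 20.96% against 7.66%. PU.1, a factor of progenitors and myeloid cells that early T precursors still carry, had its motif in 22.1% (17.6% to 27.4%) of the 276 DN1-only DHSs against 5.70% of all and in 0.641% of the DN2b-only DHSs. E proteins, which drive T cell and B cell development, had a motif in 37.8% of DN2b-only and 37.7% of DN2-only DHSs against 22.5%. GATA and TCF1/LEF1, motifs of GATA3 and of the Notch-induced factor TCF1, were each in 24.7% of the 77 DN2-only DHSs, against 8.25% and 11.2%. LSK-only DHSs had the GATA motif in 14.3% and the PU.1 motif in 10.6%. The RBPJ motif, that of the DNA-binding partner of Notch, was in 6.73% of Delta1-only DHSs (4.05% to 10.98%) against 3.43% of all, and the CTCF motif in 4.09% of desert DHSs against 5.004%. DHSs from 1 to 200 kb with the same patterns had shares of 57.7% (RUNX, Delta1-only), 38.9% (C/EBP, IgG-only), 18.4% (PU.1, DN1-only) and 17.7% (GATA, DN2-only), all lower than in deserts, and of 24.8% (TCF1/LEF1, DN2-only) and 46.2% (E protein, DN2b-only), which were not, so these contrasts were not particular to deserts. GC content also differs between the classes and was not matched.

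**Figure D3:**
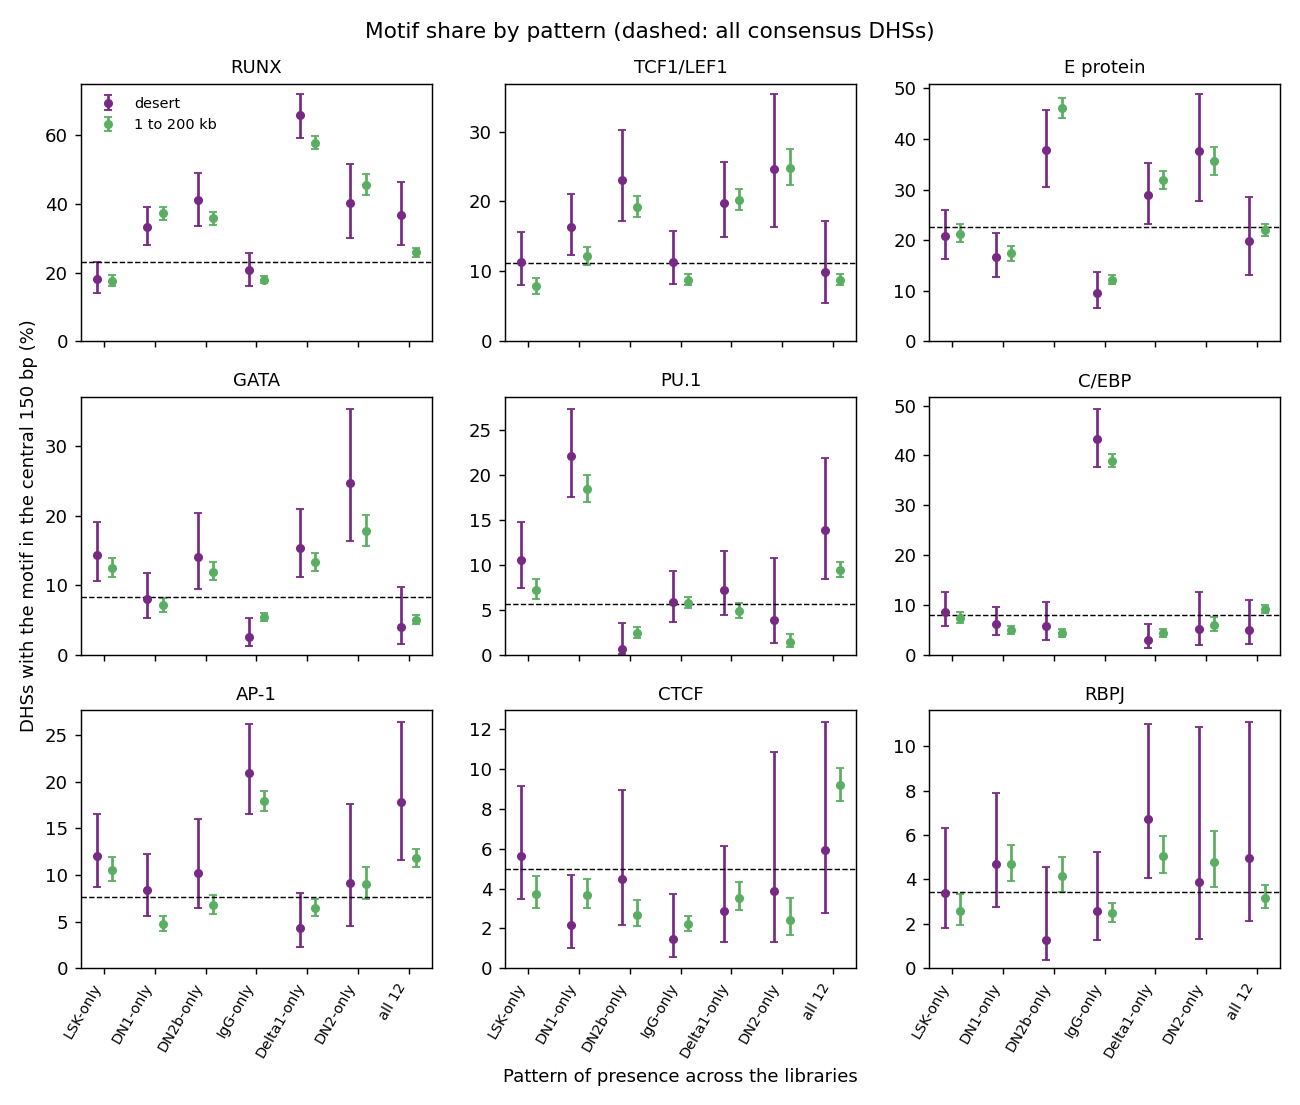
Percentage of DHSs whose central 150 bp hold each of 9 motifs on either strand, by pattern of presence, for desert DHSs and for DHSs 1 to 200 kb from a start. Points are shares, bars 95% Wilson intervals and dashed lines the share of all consensus DHSs. RUNX is highest in Delta1-only DHSs (65.9% in deserts), C/EBP in IgG-only (43.4%) and PU.1 in DN1-only (22.1%).

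Deserts were compared by the percentage of a library's desert DHSs that each held, so that a longer list does not by itself raise the value. Of 572 deserts with at least 5 DHSs, 122 (21.3%) differed between the 5 groups (eta squared, exact permutation test, Benjamini-Hochberg adjusted p under 0.05), and 229 had an unadjusted p under 0.05. Leaving out 1 library lowered the number called to 54 without DN1 replicate 1, 65 without DN1 replicate 2, 66 without IgG replicate 2, and 78 or 79 without LSK replicate 1, 2 or 3, DN2b replicate 1 or IgG replicate 1. The group with the highest share among the 122 was LSK in 42, IgG in 34, DN2b in 19, DN1 in 14 and DN2a in 13, and IgG was the lowest in 64. Over all 572 tested, the highest was LSK in 156, IgG in 155, DN2b in 94, DN1 in 86 and DN2a in 81. Whether the called deserts differ from all tested in this was not tested. IgG libraries held 793 to 1170 desert DHSs and other libraries 1957 or more, so a desert with the same number of open DHSs everywhere has a higher share in IgG. Such a case was Elfn1–Mad1l1, where 2, 2 and 3 of its 5 DHSs were open in IgG and 2, 2 and 2 in LSK. On counts in place of shares, 95 deserts were called and 51 were called on both scales. At equal list lengths 156 deserts could be tested and 89 were called, among them 45 of the 51 called as deposited that could be tested. All 3 ways called 19, including Vrk1–3110018I06Rik, Tox–Car8, Exoc4–Lrguk, Olfr1507–Dad1, Cetn3–Mef2c, Mmadhc–Rnd3 and Eci2–Cdyl. In what follows, exact p is the adjusted p of this exact permutation test on shares, and the value at equal list lengths is added where the desert could be tested there. Where libraries are said to stand above others or not to overlap, numbers of open DHSs are meant, and longer lists tend to hold more. How many of all deserts tested show such a separation was not counted.

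The deserts past the 3′ end of Bcl11b, whose product commits precursors to the T lineage, had most open DHSs at the DN2 stages. Vrk1–3110018I06Rik (chr12:106230718-107288631) held 57 DHSs, of which 5, 3 and 4 were open in LSK, 5 and 1 in DN1, 15 and 14 in DN2a, 15 and 52 in DN2b, and 0, 1 and 2 in IgG. All 4 DN2 libraries stood above all others, and DN2b replicate 2 stood far above the rest. The groups differed (eta squared 0.937, exact p = 0.00923, and at equal lengths 0.00979), also without that library (eta squared 0.949, exact p = 0.0250). At a limit of 500 kb the call was lost (eta squared 0.784, exact p = 0.0861). This desert held 4 DN2-only sites, more than any other, at 756, 884, 917 and 1201 kb from the Bcl11b start. A site at 855 kb was open in the 3 LSK libraries, DN1 replicate 1 and all 4 DN2 libraries, and one at 1472 kb in every library except IgG replicate 1. The DN2-only site at 1201 kb (chr12:106802337-106802506) ranked at the 74.5th and 48.6th percentile in DN2a and the 86.4th and 92.4th in DN2b. Nearer to the gene, 3110018I06Rik–Bcl11b (chr12:107688633-107803413) held 12 DHSs, with 0 in each LSK and IgG library, 1 and 0 in DN1, 2 and 3 in DN2a and 4 and 10 in DN2b (eta squared 0.989, exact p = 0.00875).

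**Figure D4:**
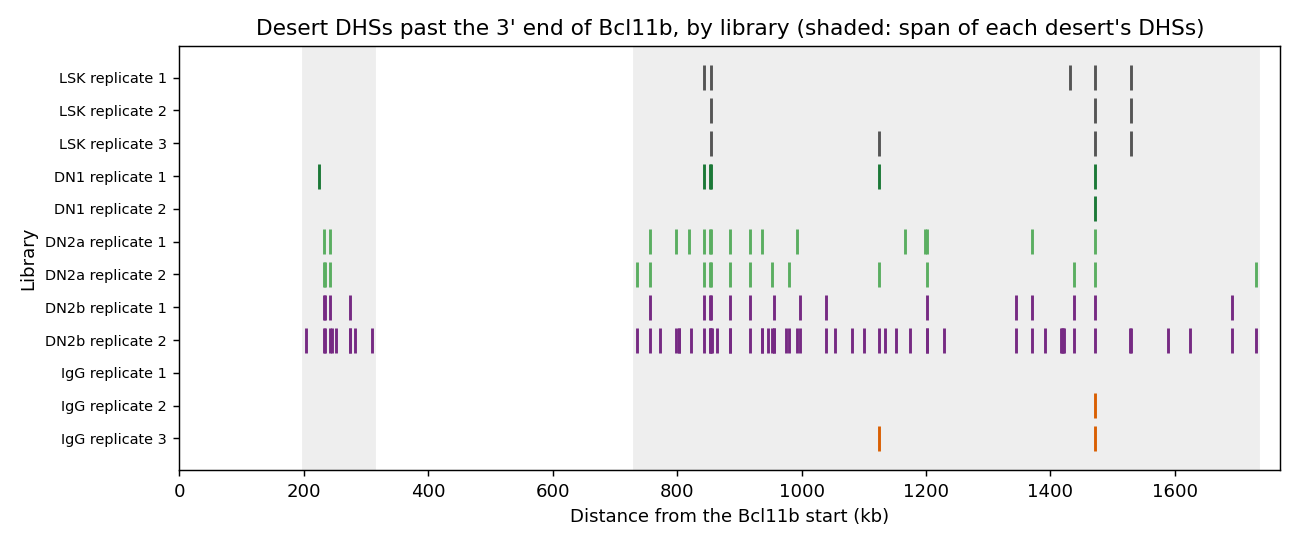
Desert DHSs past the 3′ end of Bcl11b, as distance from its start in kb, with one row per library and a tick for each DHS with a peak. Grey spans run from the first to the last DHS of the 2 deserts. Ticks are dense in the DN2a and DN2b rows, with 52 of 57 DHSs of the farther desert in DN2b replicate 2, and nearly absent from the IgG rows.

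Among the other deserts beside T lineage regulators, those of Tox and Ets1 described next were called on shares of the deposited lists. Celf2–Gata3, Myc–Gsdmc and Runx1–Setd4 were not, and were called at equal lengths and in the upper 50% of each list. Tox–Car8 (chr4:7190800-8039040, 51 DHSs), beside Tox, a nuclear factor of thymocyte development, had 12, 13 and 15 open in LSK, 29 and 23 in DN1, 24 and 26 in DN2a, 18 and 37 in DN2b, and 1 in each IgG library. By number, the Delta1 libraries stood above LSK and LSK above IgG with no overlap (eta squared 0.982, exact p = 0.00459, and at equal lengths 0.00532), which is also the order of their list lengths by group mean. By share, the group means were 0.616% in LSK, 0.736% to 0.958% in the Delta1 groups and 0.111% in IgG. Celf2–Gata3 (chr2:7596199-9678599, 46 DHSs), beside Gata3, required for T cell specification, had 6, 2 and 5 in LSK, 20 and 7 in DN1, 14 and 7 in DN2a, 8 and 34 in DN2b, and 0 in each IgG library. It did not pass on the deposited lists (eta squared 0.758, exact p = 0.0874) and passed at equal lengths (exact p = 0.0126), in the upper 50% of each list (0.00593) and at a limit of 100 kb (0.0446). Myc–Gsdmc (chr15:62187423-63608758, 96 DHSs), beside the growth regulator Myc, had 6, 6 and 5 in LSK, 34 and 25 in DN1, 42 and 22 in DN2a, 33 and 58 in DN2b, and 10, 5 and 12 in IgG (exact p = 0.117, at equal lengths 0.00979, in the upper 50% 0.00330, and without DN2a replicate 2 0.0450). The desert on the other side of that gene, A1bg–Myc (25 DHSs), had 4, 4 and 6 in LSK, 9 and 4 in DN1, 4 and 2 in DN2a, 6 and 10 in DN2b, and 2, 4 and 6 in IgG, and was called under no alternative (exact p = 0.131, and at equal lengths 0.0880). Runx1–Setd4 (chr16:93026150-93385257, 50 DHSs) had 7, 13 and 13 in LSK, 19 and 13 in DN1, 20 and 18 in DN2a, 21 and 33 in DN2b, and 6, 5 and 11 in IgG (exact p = 0.247, at equal lengths 0.0213, in the upper 50% 0.00424, and on counts 0.0298). Ets1–Kirrel3, with 21 DHSs beside the lymphoid factor Ets1, had 5 to 12 open outside IgG and 0, 1 and 1 in IgG (exact p = 0.0354). Its call was lost at limits of 100 kb (exact p = 0.0830) and 500 kb (0.0518).

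Of 30 T lineage genes listed, 12 were the nearest start to desert DHSs (334 DHSs in 15 deserts), and 4 of the 15 deserts were called (26.7% against the background of 21.3%): those beside Bcl11b, Ets1, Tox and Zeb2. The other 11 included Nsmaf–Tox, on the other side of Tox (exact p = 0.0541), both Myc deserts and those beside Gata3, Runx1, Satb1, Ikzf2, Id2 and Hes1. Of 25 progenitor and myeloid genes, 7 were nearest to desert DHSs (167 DHSs in 11 deserts), and 5 of the 10 deserts tested were called, among them Meis1–Spred2, Cetn3–Mef2c and 2 beside Maf, whereas Etaa1–Meis1 was not (eta squared 0.622, exact permutation test, adjusted p = 0.152). Together 9 of 25 tested were called (36%), with a median eta squared of 0.758 against 0.647 over all deserts tested.

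Some deserts of progenitor regulators had most open DHSs in LSK or DN1 by number, although in those beside Bcl11a and Mef2c the share was highest in IgG. Meis1–Spred2 (chr11:19218986-19724374, 25 DHSs), beside Meis1, a homeodomain factor of stem cells, had 5, 7 and 6 open in LSK, 17 and 10 in DN1, 1 and 1 in DN2a, 0 and 4 in DN2b, and 0, 0 and 1 in IgG. LSK and DN1 together stood above every other library (eta squared 0.936, exact p = 0.0204). The call was lost without LSK replicate 1, LSK replicate 3 or DN1 replicate 1 (largest exact p = 0.0721). Bcl11a–5730522E02Rik, beside the progenitor and B cell factor Bcl11a, held the most LSK-only sites, 4 of its 28. It had 10 in each LSK library, 8 and 6 in DN1, 3 and 8 in DN2a, 2 and 8 in DN2b, and 4, 5 and 4 in IgG (exact p = 0.0591, and at equal lengths 0.00957), and its share was 0.467% in LSK and 0.482% in IgG. Cetn3–Mef2c (chr13:81991978-83304033, 37 DHSs), beside the lymphoid and myeloid factor Mef2c, had 2, 6 and 6 in LSK, 20 and 12 in DN1, 7 and 9 in DN2a, 7 and 10 in DN2b, and 5, 4 and 7 in IgG (exact p = 0.0387, and at equal lengths 0.0201). In the shares tested, IgG was highest (0.570%), followed by DN1 (0.442%), and LSK was lowest (0.212%).

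**Figure D5:**
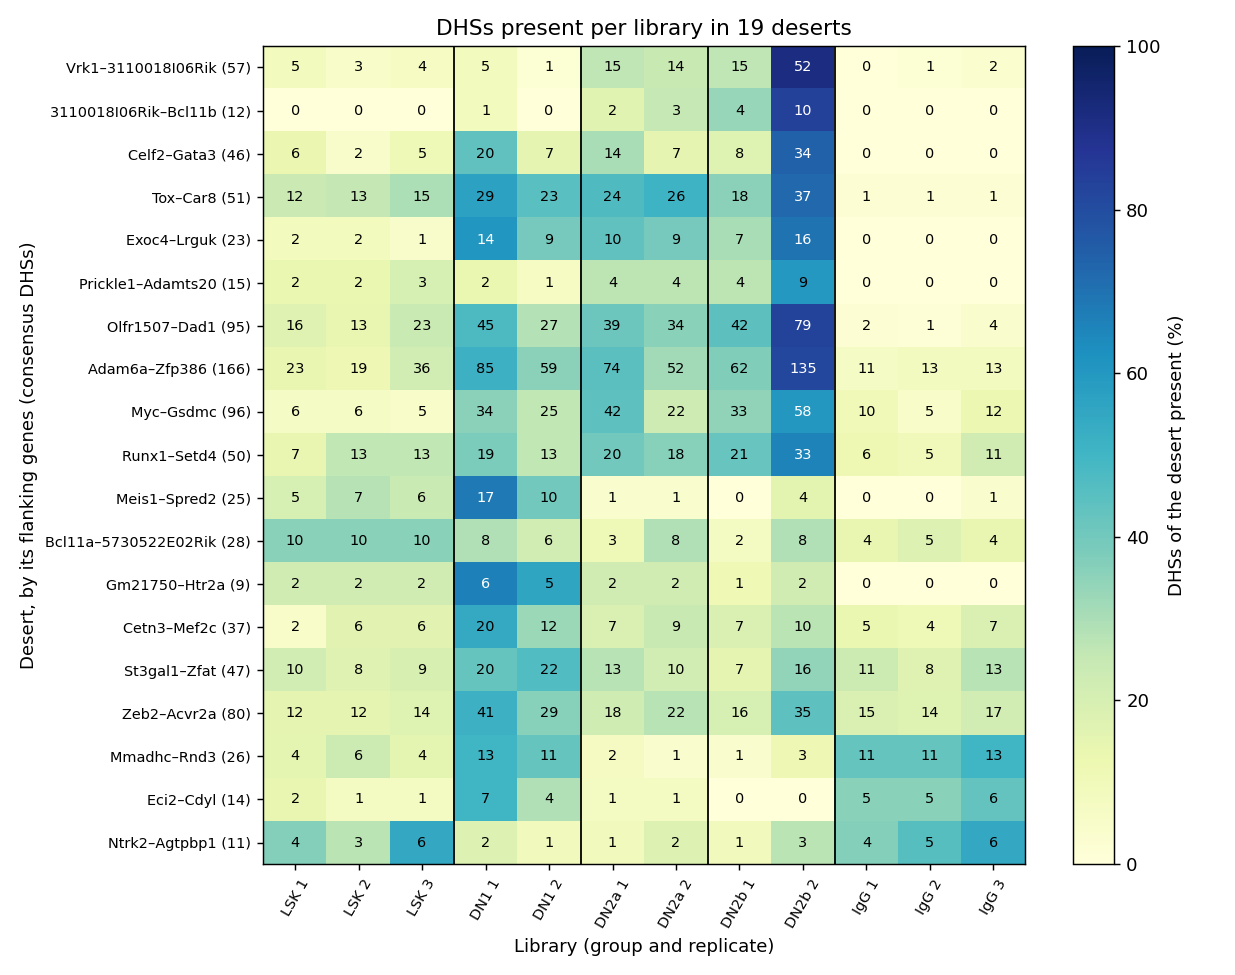
Number of open DHSs in 19 of the named deserts, by library, with colour giving the percentage of the desert's consensus DHSs, whose number is in parentheses. Vrk1–3110018I06Rik goes from 0 to 5 outside DN2 to 14 to 52 in DN2 libraries. Mmadhc–Rnd3 and Eci2–Cdyl are fullest in DN1 and IgG, and Meis1–Spred2 in LSK and DN1.

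The desert with the most stage-specific sites was St3gal1–Zfat (chr15:67376831-68058786), with 14 of 47 DHSs, of which 7 were DN1-only, 6 IgG-only and 1 LSK-only. Its open DHSs were 10, 8 and 9 in LSK, 20 and 22 in DN1, 13 and 10 in DN2a, 7 and 16 in DN2b, and 11, 8 and 13 in IgG (exact p = 0.0330, and at equal lengths 0.00523), and by share IgG was highest (1.15%, against 0.613% in DN1). Zeb2–Acvr2a (chr2:45317396-48614108), beside Zeb2, a repressor of many blood lineages, had 13 of 80, of which 7 were IgG-only and 5 DN1-only. Open DHSs there were 12, 12 and 14 in LSK, 41 and 29 in DN1, 18 and 22 in DN2a, 16 and 35 in DN2b, and 15, 14 and 17 in IgG (eta squared 0.952, exact p = 0.00344, and at equal lengths 0.0138), so that DN1 was highest by mean number and IgG by share (1.68%, against 0.981% in DN1). Myc–Gsdmc followed with 12, of which 7 were IgG-only and 4 DN2b-only, level with the antigen receptor deserts Adam6a–Zfp386 and Olfr1507–Dad1, and then Wwox–Maf with 10 of 109. The long gene Wwox itself held 83 desert DHSs, and with gene bodies excluded the exact p of Wwox–Maf was 0.0242. Open DHSs in Wwox–Maf, beside Maf, a factor of macrophages and T cell subsets, were 22, 23 and 24 in LSK, 62 and 38 in DN1, 38 and 35 in DN2a, 35 and 66 in DN2b, and 16, 15 and 22 in IgG (exact p = 0.0330, at equal lengths 0.0261, and in the upper 50% of each list 0.339). By number IgG was lowest there, but by share, which the test compares, it was highest, with 1.90% of its desert DHSs against 1.07% in LSK and 1.38% to 1.48% in the Delta1 groups. The desert on the other side of that gene, Maf–Dynlrb2, had 4, 3 and 5 of its 9 DHSs open in LSK, 1 to 5 in the Delta1 libraries and 0 in each IgG library (exact p = 0.0158). In all, 422 deserts held at least 1 stage-specific DHS and 47 held 5 or more.

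Some deserts were fullest in DN1 and IgG by number. Mmadhc–Rnd3 (chr2:50496802-50949109, 26 DHSs) had 4, 6 and 4 open in LSK, 13 and 11 in DN1, 2 and 1 in DN2a, 1 and 3 in DN2b, and 11, 11 and 13 in IgG, with no overlap between DN1 or IgG and the other 3 groups (eta squared 0.981, exact p = 0.00413, and at equal lengths 0.00442). It held 3 DN1-only and 6 IgG-only sites, and by share IgG (1.27%) stood above DN1 (0.342%). Eci2–Cdyl (chr13:35227095-35459832, 14 DHSs) had 2, 1 and 1 in LSK, 7 and 4 in DN1, 1 and 1 in DN2a, 0 and 0 in DN2b, and 5, 5 and 6 in IgG (eta squared 0.984, exact p = 0.00413, and at equal lengths 0.0222). By share IgG was again above DN1 (0.581% against 0.151%). Ntrk2–Agtpbp1 (11 DHSs) instead had most open DHSs by number in LSK and IgG, with 4, 3 and 6 in LSK, 4, 5 and 6 in IgG and 1 to 3 in the 6 Delta1 libraries (exact p = 0.00459, and at equal lengths 0.00663). By share IgG stood above LSK (0.539% against 0.196%), and the Delta1 groups were at 0.0407% to 0.0567%.

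Away from the listed regulators, Exoc4–Lrguk (chr6:33449133-33829447, 23 DHSs) was fuller in Delta1 culture. It had 2, 2 and 1 open in LSK, 14 and 9 in DN1, 10 and 9 in DN2a, 7 and 16 in DN2b, and 0 in each IgG library, with no overlap in number between the Delta1 libraries and the others (eta squared 0.980, exact p = 0.00478, and at equal lengths 0.00250). By share, the group means were 0.0803% in LSK, 0.319% to 0.365% in the Delta1 groups and 0 in IgG. The long gene Exoc4 itself held 23 desert DHSs, as many as this desert, and with gene bodies excluded the desert was not tested. Other deserts with no open DHS in IgG were fullest in different groups, but the remaining groups were not tested without IgG. Prickle1–Adamts20 (chr15:93795892-94204257, 15 DHSs) was fullest in DN2a and DN2b and had the highest eta squared, 0.990, with 2, 2 and 3 in LSK, 2 and 1 in DN1, 4 and 4 in DN2a, 4 and 9 in DN2b and 0 in each IgG library (exact p = 0.00206). Gm21750–Htr2a (chr14:73861226-74440839, 9 DHSs) was fullest in DN1, with 6 and 5 open there, 1 or 2 in each LSK, DN2a and DN2b library and 0 in each IgG library (exact p = 0.00248).

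The antigen receptor loci supplied the fullest desert. Adam6a–Zfp386 (chr12:113743909-115847723), which spans the variable segments of Igh, the immunoglobulin heavy chain, held 166 DHSs, with 23, 19 and 36 open in LSK, 85 and 59 in DN1, 74 and 52 in DN2a, 62 and 135 in DN2b, and 11, 13 and 13 in IgG. By number, every Delta1 library stood above every other library, and 9 of the DHSs were Delta1-only, the most of any desert. By share, the group means were 1.18% in LSK, 2.01% to 2.80% in the Delta1 groups and 1.35% in IgG. The difference in share was close to the threshold (eta squared 0.845, exact p = 0.0442, and at equal lengths 0.00490) and lost it without most single libraries (largest exact p = 0.0959). Olfr1507–Dad1 (chr14:52695750-54053913), which spans the T cell receptor alpha and delta segments, held 95, with 16, 13 and 23 open in LSK, 45 and 27 in DN1, 39 and 34 in DN2a, 42 and 79 in DN2b, and 2, 1 and 4 in IgG (eta squared 0.933, exact p = 0.00413, and at equal lengths 0.00250). It held the most DN2b-only sites, 9, one of them (chr14:53794617-53794806) 459 kb from Dad1 at the 67.9th and 82.0th percentile. The Tcrg locus, of T cell receptor gamma, gave 10 desert DHSs, of which 1 to 3 were open in each library other than DN2b replicate 2, which had 8. Segments of these families are near copies of each other, so read placement there is uncertain.

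Several of these calls rested on single libraries, on the scale or on another setting. With each of the 12 libraries left out in turn, the adjusted p of the exact permutation test stayed under 0.05 throughout for Vrk1–3110018I06Rik, 3110018I06Rik–Bcl11b, Tox–Car8, Exoc4–Lrguk, Prickle1–Adamts20, Gm21750–Htr2a, Olfr1507–Dad1, Mmadhc–Rnd3, Eci2–Cdyl, Ntrk2–Agtpbp1, Zeb2–Acvr2a, Maf–Dynlrb2 and Slit3–Pank3. It also did so for Elfn1–Mad1l1 in the 9 cases in which that desert still had enough DHSs to be tested. It rose above 0.05 whichever library was left out for St3gal1–Zfat (largest exact p = 0.0846), in 10 of 12 cases for Ets1–Kirrel3 (0.0935), in 9 for Cetn3–Mef2c (0.0849) and in 8 for Wwox–Maf (0.0916). Counts in place of shares ended the call, with an exact p of 0.144 for Zeb2–Acvr2a, 0.117 for Ntrk2–Agtpbp1, 0.138 for Wwox–Maf, 0.131 for St3gal1–Zfat, 0.128 for Maf–Dynlrb2, 0.0620 for Slit3–Pank3, 0.194 for Elfn1–Mad1l1, 0.0748 for Ets1–Kirrel3 and 0.0583 for Adam6a–Zfp386. Fewer libraries also leave fewer divisions for the test. In the upper 50% of each list Wwox–Maf lost its call (eta squared 0.467, exact p = 0.339). Cetn3–Mef2c lost its call with merging at 50 bp (exact p = 0.0515) and at 100 kb (0.0514). A limit of 500 kb ended the call for Wwox–Maf (exact p = 0.160), Cetn3–Mef2c (0.244), Zeb2–Acvr2a (0.132), Adgrl2–Adgrl4 (0.120), St3gal1–Zfat (0.340) and Adam6a–Zfp386 (0.378).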

How the data were processed

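DNase-seq peak lists of 12 libraries were analysed. According to the study's methods, the authors mapped paired-end reads to mm10 and called peaks with hotspot2 at an FDR cutoff of 0.05, and 1 list was deposited per library. The submitters' processing notes name BWA 0.7.12 and SAMtools 1.2. Each deposited list gives 150 bp peaks with a score, a whole number up to 150 whose meaning is not given in the sources used here, so only its rank within a list was used. Chromosome Y and the mitochondrial genome (0.0622% of peaks) were left out. No reads or depths were analysed, so a missing peak in a short list is weak evidence of closed chromatin.

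Members and lists were chosen with earlier results of these data known. Peaks overlapping by at least 1 bp were merged, and presence in a group meant a peak in at least 2 replicates. A DHS was assigned to a desert by its midpoint. Named deserts were the 10 with the most stage-specific DHSs, the one with the most DHSs of each pattern, the 10 called with the highest eta squared, and those of listed regulators with at least 5 DHSs. Named DHSs were the 3 of highest median percentile in each pattern. Those the comparisons turn on are described and the rest are counted. One of the named deserts is left out here. Exact permutation tests ran over all 138600 divisions of the libraries or 4096 sign flips, treating libraries as independent, so p-values measure the spread between these libraries only. Statistics used Python 3.11.15, numpy 2.4.6, scipy 1.17.1 and pandas 2.3.3, and functions were tested on simulated data. Alternatives were equal list lengths, the upper 50% of each list, gene-record starts, limits of 100 and 500 kb, merging at 50 bp, exclusion of gene bodies, repeats or chromosome X, presence in every replicate, counts, deserts of at least 10 DHSs, and each library left out. Antigen receptor segments counted as starts, and comparison within 4 bands of score, were added after seeing the data.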

Additional observations from a re-analysis of the deposited data

Results flagged for a closer look

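Chromosome Y was outside the comparisons. Peaks there more than 200 kb from every protein-coding start numbered 1, 5 and 2 in the IgG libraries, the control culture. More than the highest of these were found in LSK replicate 1 (8), LSK replicate 2 (11), LSK replicate 3 (6), DN1 replicate 1 (7) and DN2b replicate 2 (7), which is why they are listed. The other 4 libraries had 2 to 5. IgG lists were the shortest, and the part of list length in these counts was not tested.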

How the results depend on the processing

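No paired analysis was possible because the labels carry no replicate numbers. Tests of eta squared, single-library and all-12 shares, score percentile and Jaccard difference kept their direction and call in the alternatives other than those below, and the score percentile difference of -26.4 narrowed to -13.8 at equal list lengths and -12.5 in the upper 50% of lists. The desert share of consensus DHSs (5.63%) was 3.29% at equal list lengths, 2.90% in the upper 50% of lists, 7.25% with gene-record starts, 13.1% at 100 kb, 1.14% at 500 kb, 4.51% outside gene bodies, 5.18% without repeats and 5.46% with antigen receptor segments as starts. Eta squared of the desert share between groups (0.718) lost its call at equal lengths (0.393), at 500 kb (0.673), outside gene bodies (0.684) and with receptor segments as starts (0.689).

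The desert excess of single-library DHSs was -0.851, -0.595 and 0.0762 points in score bands 2, 3 and 4, from low to high. Deserts called (122) numbered 79 in the upper 50% of lists, 287 at 100 kb and 19 at 500 kb. Delta1-only DHSs (208) numbered 75 at equal lengths, and 113, 484 and 46 in the upper 50%, at 100 kb and at 500 kb. DN2-only DHSs (77) numbered 42, 206 and 19 there, and stage-specific DHSs (973) numbered 406, 2286 and 163.

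Leaving out each library gave a desert share of 5.52% to 5.65%, eta squared of 0.625 to 0.828, a single-library difference of 5.93 to 8.17 points, an all-12 difference of -20.5 to -17.2 points, a percentile difference of -26.9 to -25.7, a Jaccard difference of 0.202 to 0.240, 54 to 102 deserts called, 208 to 272 Delta1-only, 77 to 141 DN2-only and 718 to 1073 stage-specific DHSs. The call on eta squared was lost without any one LSK, DN1 or IgG library (p up to 0.162, exact permutation test). Deserts called fell to 54 without DN1 replicate 1, to 65 without DN1 replicate 2, to 66 without IgG replicate 2 and to 78 or 79 without LSK replicate 1, 2 or 3, DN2b replicate 1 or IgG replicate 1. DN2-only DHSs rose to 141 without DN1 replicate 1 and to 132 without DN2a replicate 2. A group left with 1 library has no stage-specific DHSs by the rule, and in eta squared it adds nothing to the spread within groups. The cause of each change other than fewer lists, peaks or sites was not tested. Over the named deserts, 822 of 954 values kept their side of the threshold, 98 lost and 34 gained a call.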

Other observations

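Chromosome X deserts were poorer in DHSs than those of the autosomes, with 4.80 DHSs per Mb (198 in 41.3 Mb) against 15.3 per Mb. The density of other DHSs on X was not compared, so this is not shown to be particular to deserts. The desert share of consensus DHSs was 5.64% on the autosomes alone and 5.63% with X included. On X, 37.9% of desert DHSs were found in 1 library and 2.02% in all 12, against 41.3% and 1.03% on the autosomes. Among the 101 desert DHSs open in all 12 libraries, 36.6% held the RUNX motif in the central 150 bp, 13.9% that of PU.1, 17.8% that of AP-1 and 5.94% that of CTCF. The shares of all consensus DHSs were 23.1%, 5.70%, 7.66% and 5.004%, and those of DHSs 1 to 200 kb from a start open in all 12 were 25.8%, 9.45%, 11.8% and 9.19%. The highest-ranked of them, between Uaca and Tle3, stood at the 98.0th percentile or above in the 9 LSK and Delta1 libraries and at the 89.4th, 88.5th and 97.9th in IgG. The same desert held a Delta1-only site in an exon of the lncRNA gene Gm33914, 246 kb from the corepressor gene Tle3, at the 71.6th and 51.5th percentile in DN1 and the 94.5th to 97.5th in DN2a and DN2b.

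Long genes held desert DHSs in their introns at distances over 200 kb from any start: after Wwox, Sox5 and Slc9a9 came Rora with 29, Rad51b and Smyd3 with 27 each and Hs6st3 with 25. Adgrl2–Adgrl4, a desert between 2 adhesion receptor genes, held 6 IgG-only and 2 LSK-only sites among 42 DHSs. Open DHSs there were 12, 10 and 18 in LSK, 23 and 12 in DN1, 9 and 5 in DN2a, 6 and 10 in DN2b, and 9, 12 and 14 in IgG (adjusted p = 0.00642 by the exact permutation test on shares, 0.00281 at equal list lengths, and 0.243 on counts). By share IgG was highest (1.26%) and DN2b lowest (0.241%). Ptger4–Dab2 held 7 IgG-only sites among 47 DHSs and was not called on the deposited lists (adjusted p = 0.135, exact permutation test), but was called at equal lengths (0.0222) and in the upper 50% of each list (0.0411). Id2–Rnf144a, beside Id2, an inhibitor of E proteins, held 70 DHSs, with 10 to 16 open in LSK and IgG libraries, 35 and 28 in DN1, 22 and 22 in DN2a and 17 and 36 in DN2b (adjusted p = 0.0874, and at equal lengths 0.142, exact permutation test). It was called at a limit of 100 kb (0.0495), without IgG replicate 1 (0.0476) and without IgG replicate 3 (0.0302). Nmbr–Cited2 held 9 stage-specific sites among 80 DHSs, 5 of them IgG-only, and Rad51b–Zfp36l1 held 9 among 42, of which 4 were IgG-only and 3 DN2b-only. Rad51b–Zfp36l1 was called on the deposited lists (adjusted p = 0.0187, exact permutation test) but not with gene bodies excluded (0.475). Slit3–Pank3 had 2 to 5 of its 6 DHSs open in the LSK and Delta1 libraries and 0 in each IgG library (adjusted p = 0.00875, and on counts 0.0620, exact permutation test). At a limit of 100 kb its call was lost as well (eta squared 0.742, adjusted p = 0.117, exact permutation test).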
